A study of Mus musculus with 2 samples.

Results

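The 7 genes described here, Klf2, Klf3, Klf4, Klf6, Klf7, Klf10 and Klf13, are the Krüppel-like factors chosen by gene symbol out of 31053 genes measured in single cells of the mouse colon, and all 7 had UMIs (unique molecular identifiers, each standing for 1 captured RNA molecule) in both libraries. The cells came from the colonic lamina propria, the tissue layer beneath the gut epithelium, of male C57BL/6 mice aged 6 to 8 weeks that were kept free of specific pathogens, and were profiled by droplet sequencing of transcript 3′ ends with the 10x Single Cell 3′ V3 chemistry. One library is labelled lncly6c-deficient, from a line on a C57BL/6J background in which CRISPR-Cas9 cuts on either side of both exons removed the long noncoding RNA gene 1700016P04Rik (lncly6c), and the other is labelled wild type. The study asked how lncly6c bears on the differentiation of macrophages, and the series title concerns the step between Ly6C-high and Ly6C-low or Ly6C-negative cells. How many animals were used, and whether they were pooled, is not given in the sources used here.

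The 2 libraries are called deficient-labelled and wild-type-labelled, because the deposited file names carry the opposite genotype words. If the file names are right instead of the labels, each direction below is turned round. The deleted gene gives no check, since 0 UMIs of it were counted in either library, which allows cells with a UMI of up to 0.0489% of barcodes in the deficient-labelled and 0.0993% in the wild-type-labelled library. There were 6133 barcodes with 54773076 UMIs in the deficient-labelled library and 3020 barcodes with 23384895 UMIs in the wild-type-labelled one. The filters kept 5890 and 2610 cells, whose median UMI counts were 7849 and 6205, and 7 barcode sequences occurred in both libraries. The mitochondrial limit removed 3.78% of barcodes in the deficient-labelled and 13.5% in the wild-type-labelled library. Each group is 1 library, so no test between them was possible, all intervals are 95% intervals for counting error alone, and what is given are contrasts of 2 libraries, which cannot be told apart from contrasts of genotypes.

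Krüppel-like factors are transcription factors with a conserved zinc finger domain at the C terminus that binds GC-rich and CACCC-type sequence, and they differ mainly in the N-terminal part that recruits activators or repressors. In blood and immune cells Klf2 is known for holding lymphocytes quiescent and for driving the genes of lymphocyte egress, and Klf4 is known in mice for its requirement in the formation of monocytes. Several members, Klf2, Klf4, Klf6 and Klf10 among them, are also induced quickly by serum, growth factors or stress and are often seen among the transcripts that tissue digestion raises.

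The promoters of Klf2, Klf4 and Klf13 are shown because these 3 genes were lower together in Ly6C-high monocyte-like cells of the deficient-labelled library. The sequences are the 250 bases before the transcription start, from RefSeq on GRCm38.p6, read 5′ to 3′ on the strand of the gene, and 6 of the 7 members, all but Klf10, matched an entry. Capitals mark CACCC or its complement GGGTG, the type of element that the family itself binds, and the MEF2 element.
Klf2 promoter, chr8:72318812-72319061, plus strand: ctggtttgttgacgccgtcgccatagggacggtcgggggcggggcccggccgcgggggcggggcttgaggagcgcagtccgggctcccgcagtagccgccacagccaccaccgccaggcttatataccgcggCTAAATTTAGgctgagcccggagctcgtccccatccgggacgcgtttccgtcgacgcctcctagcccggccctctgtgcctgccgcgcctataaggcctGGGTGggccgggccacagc
Klf4 promoter, chr4:55532476-55532725, minus strand: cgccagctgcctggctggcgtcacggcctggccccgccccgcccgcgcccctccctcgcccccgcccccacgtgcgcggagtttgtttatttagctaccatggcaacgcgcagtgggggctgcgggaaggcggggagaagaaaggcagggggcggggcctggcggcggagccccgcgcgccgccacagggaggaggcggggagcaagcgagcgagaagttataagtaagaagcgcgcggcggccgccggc
Klf13 promoter, chr7:63938916-63939165, minus strand: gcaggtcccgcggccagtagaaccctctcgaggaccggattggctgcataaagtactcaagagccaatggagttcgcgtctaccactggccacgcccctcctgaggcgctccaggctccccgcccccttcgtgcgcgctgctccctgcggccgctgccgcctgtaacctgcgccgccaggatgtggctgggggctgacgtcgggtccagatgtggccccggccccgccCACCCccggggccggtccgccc
Counting both strands, Klf2 held 1 CACCC, Klf13 held 1 and Klf4 held 0, and 52.0% of all 32851 RefSeq promoters of the same length held at least 1. The Sp1-type letters GGGCGG occurred 2 times in Klf2, 4 times in Klf4 and 3 times in Klf13, against at least once in 32.7% of all promoters. The MEF2 element was found in the Klf2 promoter, where it is a palindrome and so reads on both strands, and in none of the other 5 promoters; 2.92% of all promoters held one. The 3 promoters were 71.2%, 74.0% and 71.6% G or C in the order Klf2, Klf4 and Klf13, against a median of 52.4% over all promoters. These matches describe letters and show no binding.

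All 7 genes are protein coding, and GENCODE M21 places them on GRCm38 at chromosome 8, 72319033 to 72321656 (Klf2), chromosome 5, 64803388 to 64832901 (Klf3), chromosome 4, 55527143 to 55532466 (Klf4), chromosome 13, 5861482 to 5870394 (Klf6), chromosome 1, 64029447 to 64122282 (Klf7), chromosome 15, 38291463 to 38300706 (Klf10) and chromosome 7, 63886351 to 63938915 (Klf13). Klf2, Klf3 and Klf6 lie on the plus strand and the others on the minus strand. Klf7 overlaps the antisense genes Gm26649 and Gm13748, and Klf13 overlaps the antisense gene E030018B13Rik, and whether the counting separated strands is not given in the sources used here.

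Cells were assigned to a class where at least 3 of the class's 6 marker transcripts had a UMI and more did than for any other class. This placed 4244 of the 5890 deficient-labelled cells (72.1%) and 1795 of the 2610 wild-type-labelled cells (68.8%). For the 9 classes that reached 50 cells in both libraries, all 54 markers were higher in their own class than in the other gated cells in both libraries. Cells were assigned by these same markers, so this is no independent check of the classes. Many cells held 2 or more markers of another class: 598 of 676 deficient-labelled and 338 of 383 wild-type-labelled cDC2-like cells. In macrophage-like cells these were 572 of 710 and 187 of 246, in T cell-like cells 150 of 300 and 21 of 86, and in neutrophil-like cells 48 of 158 and 87 of 302. The class names end in "-like" because they rest on RNA alone, and no Krüppel-like factor is a marker. The compared classes held, in the deficient-labelled and the wild-type-labelled library, 571 and 242 Ly6C-high monocyte-like, 78 and 53 Ly6C-low monocyte-like, 710 and 246 macrophage-like, 452 and 127 cDC1-like, 676 and 383 cDC2-like, 263 and 82 migratory DC-like, 158 and 302 neutrophil-like, 524 and 82 B cell-like and 300 and 86 T cell-like cells, where cDC stands for conventional dendritic cell.

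Member transcripts made up 104479 UMIs in the deficient-labelled and 54910 in the wild-type-labelled library, and 97.0% and 97.5% of cells held at least 1. Levels are given as CPM, the UMIs of a gene scaled to a class total of 1000000 UMIs, and are compared for 1 gene between cells but not between genes, since 3′ UMI counts are not scaled by length. The orders of levels in the paragraphs before the plot of levels are among the 9 compared classes.

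Klf4, a factor of monocyte and epithelial differentiation and one of the pluripotency reprogramming factors, was highest in Ly6C-low monocyte-like cells, at 395 CPM in the deficient-labelled and 867 CPM in the wild-type-labelled library. Ly6C-high monocyte-like cells had 285 and 535 CPM, macrophage-like cells 339 and 407 CPM, cDC2-like cells 291 and 377 CPM and cDC1-like cells 269 and 362 CPM, in the same order of libraries. T cell-like cells held 271 and 609 CPM, B cell-like cells 206 and 346 CPM, migratory DC-like cells 212 and 233 CPM, and neutrophil-like cells, the lowest, 100 and 122 CPM. The wild-type-labelled library was the higher one in all 9 classes, and only the last step of this order, between migratory DC-like and neutrophil-like cells, separated the ranges over the 2 libraries. The level in neutrophil-like cells rested on 51 deficient-labelled and 130 wild-type-labelled UMIs, and their log2 ratio was positive under 2 of 11 settings.

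Among the compared classes, Klf2 ran highest in lymphocyte-like and neutrophil-like cells. B cell-like cells held 370 CPM in the deficient-labelled and 546 CPM in the wild-type-labelled library, neutrophil-like cells 464 and 391 CPM and T cell-like cells 332 and 425 CPM, and these 3 classes overlapped. The other 6 compared classes lay below them: Ly6C-low monocyte-like cells at 193 and 270 CPM, cDC1-like cells at 193 and 237 CPM, macrophage-like cells at 175 and 147 CPM, migratory DC-like cells at 208 and 104 CPM, cDC2-like cells at 146 and 108 CPM and Ly6C-high monocyte-like cells at 88.1 and 145 CPM. The wild-type-labelled library was the higher one in 5 of the 9 classes and the deficient-labelled library in 4.

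Klf6, induced in injury and linked in mice to inflammatory activation of macrophages, ranged over the classes from 442 CPM in deficient-labelled and 574 CPM in wild-type-labelled B cell-like cells up to 1706 and 1986 CPM in macrophage-like cells. Every myeloid class except cDC1-like cells stood above both lymphocyte classes in both libraries. Klf7, best known from neurons, was highest in neutrophil-like cells, at 263 CPM in the deficient-labelled and 243 CPM in the wild-type-labelled library, and no other compared class reached beyond 141 CPM. Klf3, a repressor that recruits the CtBP corepressors, was likewise highest in neutrophil-like cells (275 and 278 CPM) and lowest in migratory DC-like cells, at 37.5 and 37.4 CPM. In both genes the neutrophil-like range stood clear of the next class.

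Klf13, known in human T cells for activating the chemokine gene CCL5, was highest among the compared classes in T cell-like cells, at 191 CPM in the deficient-labelled and 304 CPM in the wild-type-labelled library. Ly6C-low monocyte-like cells followed at 141 and 253 CPM and overlapped them, and migratory DC-like cells were lowest, at 37.2 and 36.6 CPM. Klf10, the TGF-beta-inducible early gene, was lower than 100 CPM in every compared class. Its highest values were 52.1 CPM in deficient-labelled and 97.0 CPM in wild-type-labelled Ly6C-low monocyte-like cells, and its lowest were 27.1 and 15.4 CPM in B cell-like cells. Only 65 and 6 UMIs of Klf10 were counted in B cell-like cells, so the order at the low end is loose.

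**Figure D1:**
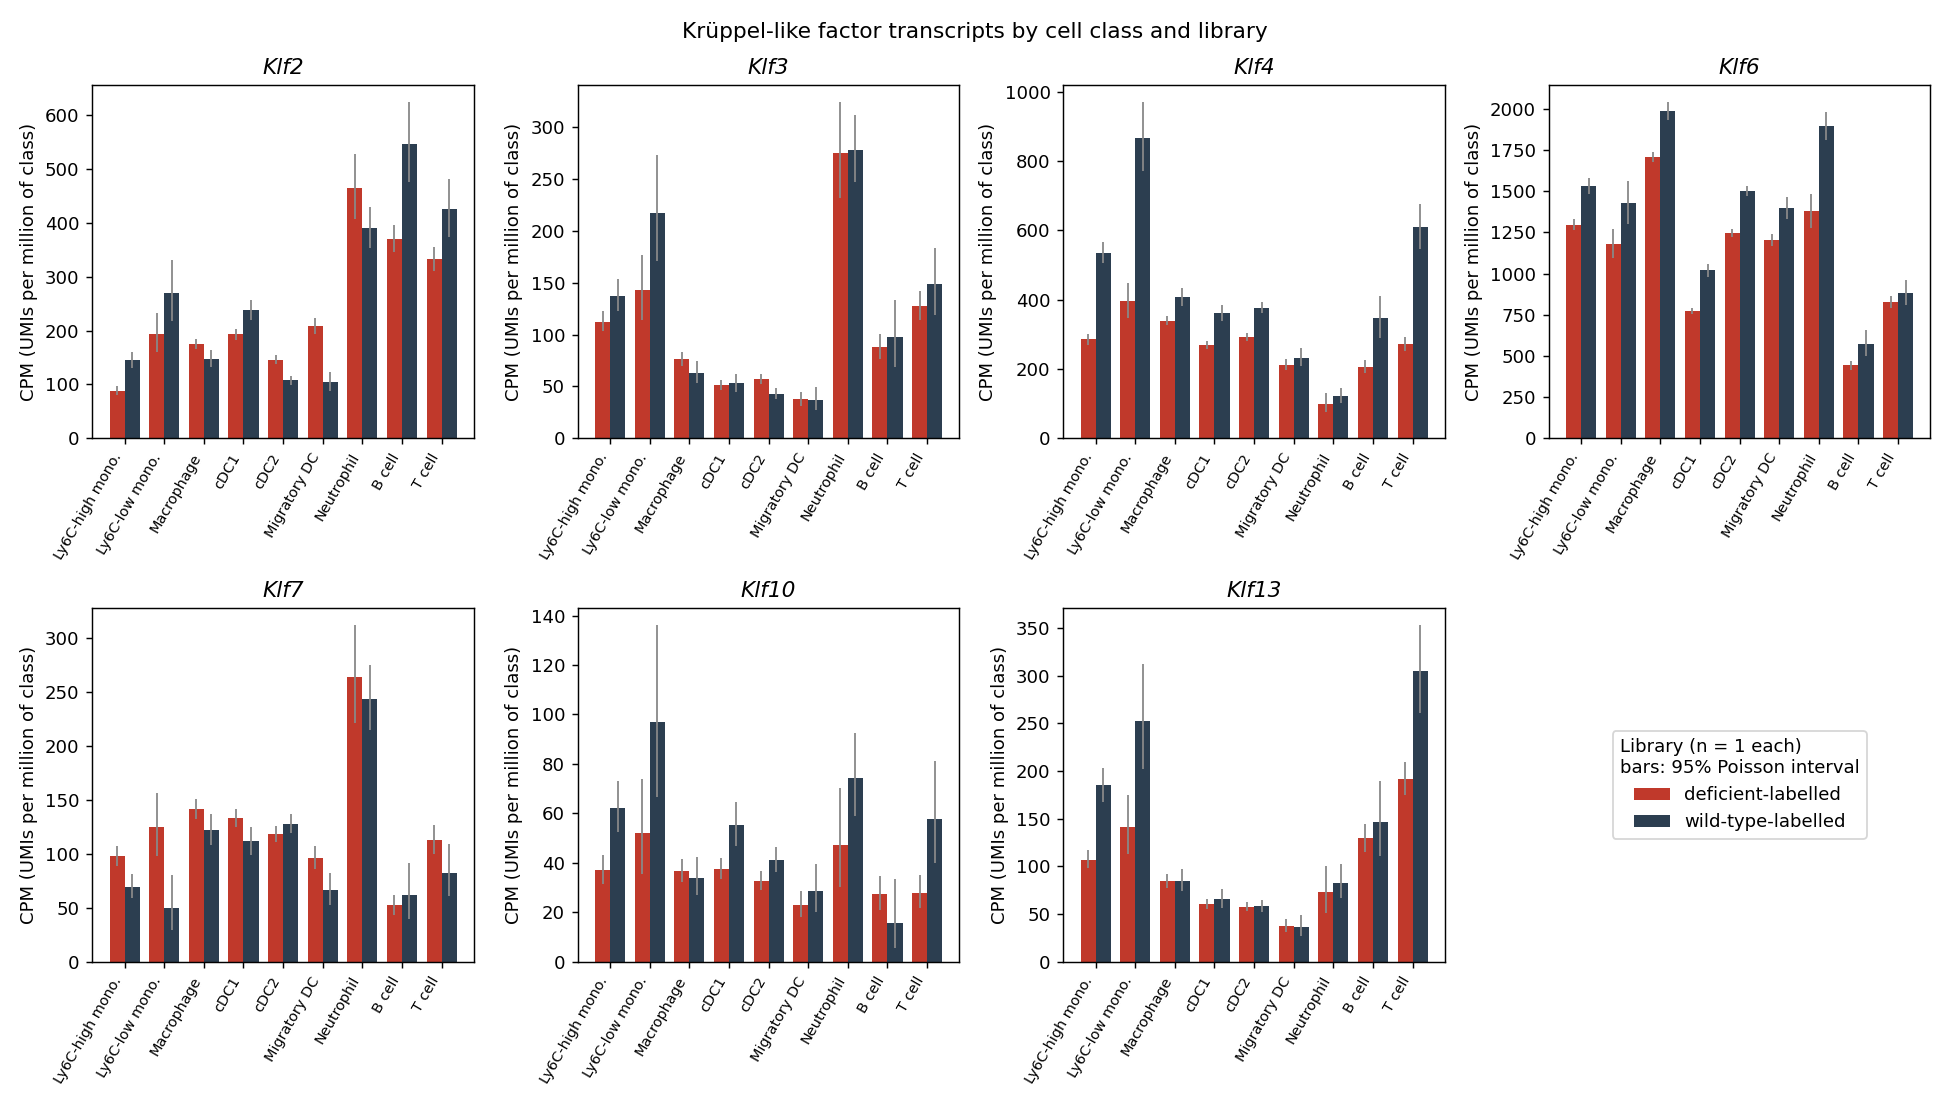
Levels of the 7 Krüppel-like factors in CPM (bars from 0) by marker-gated class, deficient-labelled in red and wild-type-labelled in dark blue, 1 library each, with 95% Poisson counting intervals. Klf4 is lower in the red library in every class, while Klf2 is lower in it for Ly6C-high monocyte-like cells (88.1 against 145 CPM) and higher for migratory DC-like cells (208 against 104 CPM).

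Classes with fewer than 50 cells in a library were described but not compared. Klf4 was higher in epithelial-like cells than in any compared class, at 1012 CPM in 25 deficient-labelled and 956 CPM in 18 wild-type-labelled cells. ILC2-like cells (type 2 innate lymphoid cells) held 1463 CPM of Klf4 in 18 deficient-labelled and 1562 CPM in 8 wild-type-labelled cells, whereas NK or ILC1-like cells held 122 and 108 CPM in 102 and 38 cells. Those NK or ILC1-like cells held Klf2 at 366 CPM in the deficient-labelled library, between T cell-like (332 CPM) and B cell-like cells (370 CPM). In the wild-type-labelled library they held 357 CPM, below both (425 and 546 CPM). They held Klf13 at 221 and 323 CPM, on 98 and 57 UMIs, above T cell-like cells in each library. Klf2 was at 673 CPM in wild-type-labelled eosinophil-like cells, at 332 and 1207 CPM in ILC2-like cells and at 762 CPM in 9 deficient-labelled endothelial-like cells. Klf7 reached 1246 CPM in 17 deficient-labelled and 875 CPM in 95 wild-type-labelled eosinophil-like cells, on 22 and 117 UMIs. Fibroblast-like cells, 276 and 21 in number, held 492 and 452 CPM of Klf4. Plasma cell-like cells were at the low end for Klf4, with 66.6 CPM in 60 deficient-labelled and 55.9 CPM in 5 wild-type-labelled cells, and so were eosinophil-like cells, with 56.6 and 59.8 CPM.

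The comparison between the libraries asked how each member differed within a class. It is given as the log2 ratio of the CPM values, deficient-labelled over wild-type-labelled, and a difference is counted where it is past 1.5-fold. Of 63 pairs of a member and a class, 3 were counted higher in the deficient-labelled library, 13 were counted lower and 47 lay within 1.5-fold. Over all measured gene and class pairs, 10.6% were higher and 7.6% were lower. The median of all measured genes lay between -0.04 and 0.08 in every class.

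Most of the lower pairs lay in the monocyte-like and T cell-like classes. In Ly6C-high monocyte-like cells 4 of 7 members were lower and 0 higher, beside 7.43% and 8.72% of 7067 genes. Ly6C-low monocyte-like cells had 4 lower and 1 higher, beside 11.1% and 12.7% of 2567 genes. T cell-like cells had 3 lower and 0 higher, beside 12.5% and 19.6% of genes. B cell-like cells had 1 lower and 1 higher, beside 9.19% and 16.4% of genes, neutrophil-like cells had 1 lower and 0 higher, beside 9.31% and 14%, and migratory DC-like cells had 0 lower and 1 higher, beside 6.21% and 13%. Macrophage-like, cDC1-like and cDC2-like cells had no member past 1.5-fold, beside 5.85% of genes lower and 7.94% higher, 7.19% and 5.56%, and 4.96% and 6.41%.

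**Figure D2:**
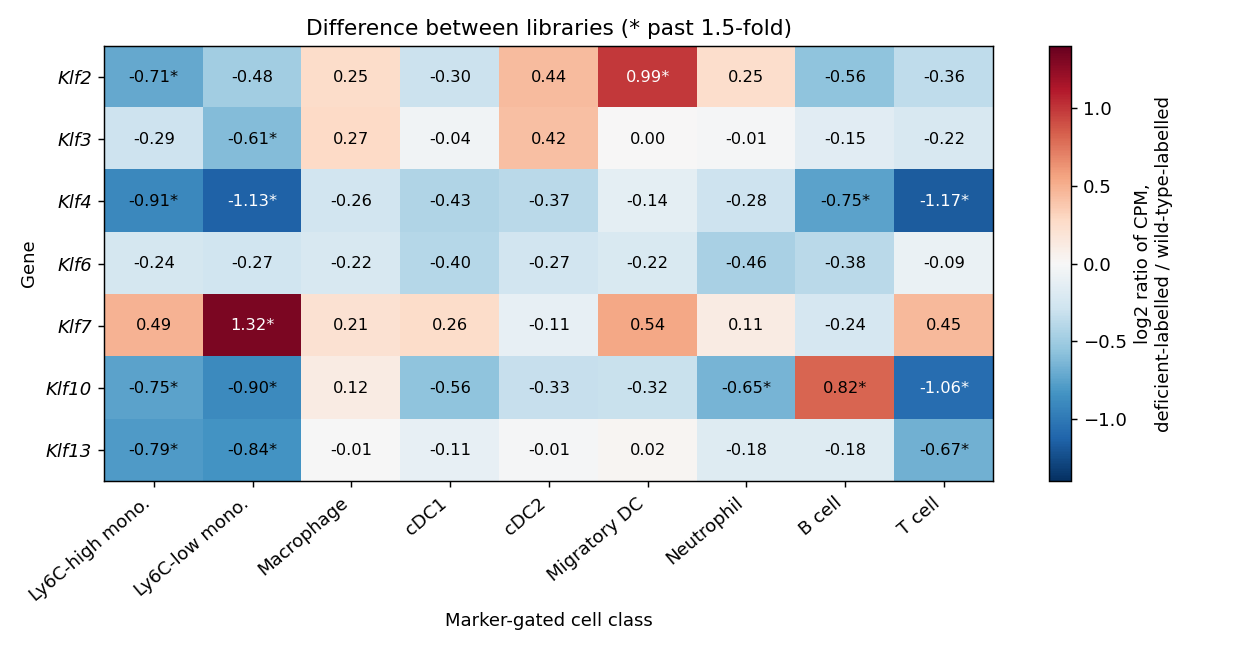
Log2 ratio of the CPM values, deficient-labelled over wild-type-labelled, for each member (rows) in each compared class (columns), 1 library per group, with stars past 1.5-fold and blue for lower in the deficient-labelled library. Klf4 and Klf6 are blue in all 9 classes (the mean over cells turns Klf4 of neutrophil-like cells to 0.56), and the starred cells gather in the 2 monocyte-like and the T cell-like columns.

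Ly6C-high monocyte-like cells, the class at the start of the step named in the series title, had less Klf4, Klf13, Klf10 and Klf2 in the deficient-labelled library. Klf4 had a log2 ratio of -0.91 (interval -1.02 to -0.79) on 1291 deficient-labelled and 1242 wild-type-labelled UMIs. Klf13 stood at 107 CPM in the deficient-labelled and 185 CPM in the wild-type-labelled library, a log2 ratio of -0.79 (-0.98 to -0.60). Klf10 stood at 36.9 and 62.0 CPM, a log2 ratio of -0.75 (-1.08 to -0.42), but it reversed to 0.14 when classes were assigned from cells thinned to 1000 UMIs. Klf2 had a log2 ratio of -0.71 (-0.93 to -0.50), which came to -0.39 under the thinned assignment. Klf7 went the other way within 1.5-fold, with 97.4 against 69.3 CPM and a log2 ratio of 0.49 (0.23 to 0.76), and it passed 1.5-fold when 2 (0.61) or 4 (0.85) of 6 markers were required, while Klf3 (-0.29) and Klf6 (-0.24) were within 1.5-fold.

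Ly6C-low monocyte-like cells had less Klf4, Klf10, Klf13 and Klf3 in the deficient-labelled library, on few cells. Klf4 had a log2 ratio of -1.13 (-1.39 to -0.88), Klf10 -0.90 (-1.65 to -0.14) on 31 deficient-labelled and 33 wild-type-labelled UMIs, Klf13 -0.84 (-1.29 to -0.39) and Klf3 -0.61 (-1.07 to -0.14). The Klf3 ratio came within 1.5-fold, at -0.55, when 2 of 6 markers were required and at -0.50 as a mean over cells. Klf2, at -0.48 (-0.89 to -0.07), stayed within 1.5-fold. Klf7 was higher in the deficient-labelled library, at 124 CPM against 49.9 CPM in the wild-type-labelled one (log2 ratio 1.32, 0.54 to 2.17), on 74 and 17 UMIs. The share of cells with a Klf7 UMI after thinning to 1000 UMIs per cell was 6.41% of 78 deficient-labelled and 9.62% of 52 wild-type-labelled cells, which goes against the CPM, so no order is read from that share. For Klf10 the share was 10.3% of the deficient-labelled and 7.69% of the wild-type-labelled cells, also against its CPM, and no order is read from it either.

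Macrophage-like cells differed little. Klf2 was at 175 CPM in the deficient-labelled and 147 CPM in the wild-type-labelled library, a log2 ratio of 0.25 (0.08 to 0.43), and Klf4 at 339 and 407 CPM, a log2 ratio of -0.26 (-0.37 to -0.15). Klf13 was at 84.3 and 84.9 CPM, but its log2 ratio came to 0.62, past 1.5-fold higher, in cells without markers of another class. The 2 conventional dendritic cell classes moved in opposite directions for Klf2, with -0.30 (-0.43 to -0.16) in cDC1-like and 0.44 (0.30 to 0.58) in cDC2-like cells. Migratory DC-like cells, which carry Ccr7 and leave the tissue for lymph nodes, had the highest Klf2 ratio of the 9 classes, 0.99 (0.72 to 1.28) on 704 deficient-labelled and 131 wild-type-labelled UMIs. Their other members lay between -0.32 (Klf10) and 0.54 (Klf7), and with 4 of 6 markers required Klf7 came to 1.19 and Klf13 to 0.59, both past 1.5-fold higher, while Klf7 came to 0.07 as a mean over cells.

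T cell-like cells had lower Klf4, Klf10 and Klf13 in the deficient-labelled library, with log2 ratios of -1.17 (-1.35 to -0.98), -1.06 (-1.68 to -0.42) and -0.67 (-0.92 to -0.41). The Klf13 ratio came to -0.14 in cells without markers of another class. B cell-like cells were lower for Klf4, at -0.75 (-1.03 to -0.46), and close to 1.5-fold lower for Klf2, at -0.56 (-0.78 to -0.34). Their Klf10 ratio of 0.82 had an interval that included 0 (-0.38 to 2.32), as did the Klf10 ratio of neutrophil-like cells, -0.65 (-1.38 to 0.02). Neutrophil-like cells held Klf3 at 275 and 278 CPM and Klf7 at 263 and 243 CPM, and neither interval left out 0.

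By member, Klf6 was lower in the deficient-labelled library in 9 of 9 classes, with log2 ratios of -0.46 to -0.09 and intervals below 0 in 8 classes, but in none past 1.5-fold. Klf4 was lower in 9 of 9 classes with intervals below 0 in 7, and of these 9 ratios only that of neutrophil-like cells changed sign under another setting, reaching 0.56 as a mean over cells. Klf7 was the one member that was mostly higher, in 7 of 9 classes with intervals above 0 in 6, although in macrophage-like, neutrophil-like and T cell-like cells its ratio came to between -0.11 and -0.02 under 1 alternative each. Klf2 was higher in 4 classes and lower in 5, and no Klf2 interval included 0. The Klf13 ratios of macrophage-like, dendritic cell-like, B cell-like and neutrophil-like cells lay between -0.18 and 0.02, but alternatives took them to 0.62 in macrophage-like, 0.59 in migratory DC-like and -0.63 in neutrophil-like cells.

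The share of cells with a UMI, taken after thinning every cell to 1000 UMIs so that depth is equal, gave the same side for Klf4 in the monocyte-like classes. A Klf4 UMI remained in 21.5% of 571 deficient-labelled (exact binomial interval 18.2 to 25.1) and 33.1% of 242 wild-type-labelled Ly6C-high monocyte-like cells (27.2 to 39.4), whose unthinned shares were 63.9% and 81.4%. In Ly6C-low monocyte-like cells it was 26.9% of 78 (17.5 to 38.2) and 61.5% of 52 cells (47.0 to 74.7), with 75.6% and 88.7% unthinned. Neutrophil-like cells, the compared class lowest in Klf4, had 5.52% of 145 deficient-labelled and 2.82% of 284 wild-type-labelled cells. This goes against their CPM of 100 and 122, so no order is read from that share. Their median depths before thinning were 2256 and 2970.5 UMIs, against 7939 and 10068 UMIs in Ly6C-high monocyte-like cells. Klf2 remained in 16.3% of 263 deficient-labelled and 4.94% of 81 wild-type-labelled migratory DC-like cells, and Klf13 in 15.4% of 299 and 30.2% of 86 T cell-like cells. Thinning left out at most 18 cells of a compared class in a library, in wild-type-labelled neutrophil-like cells.

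**Figure D3:**
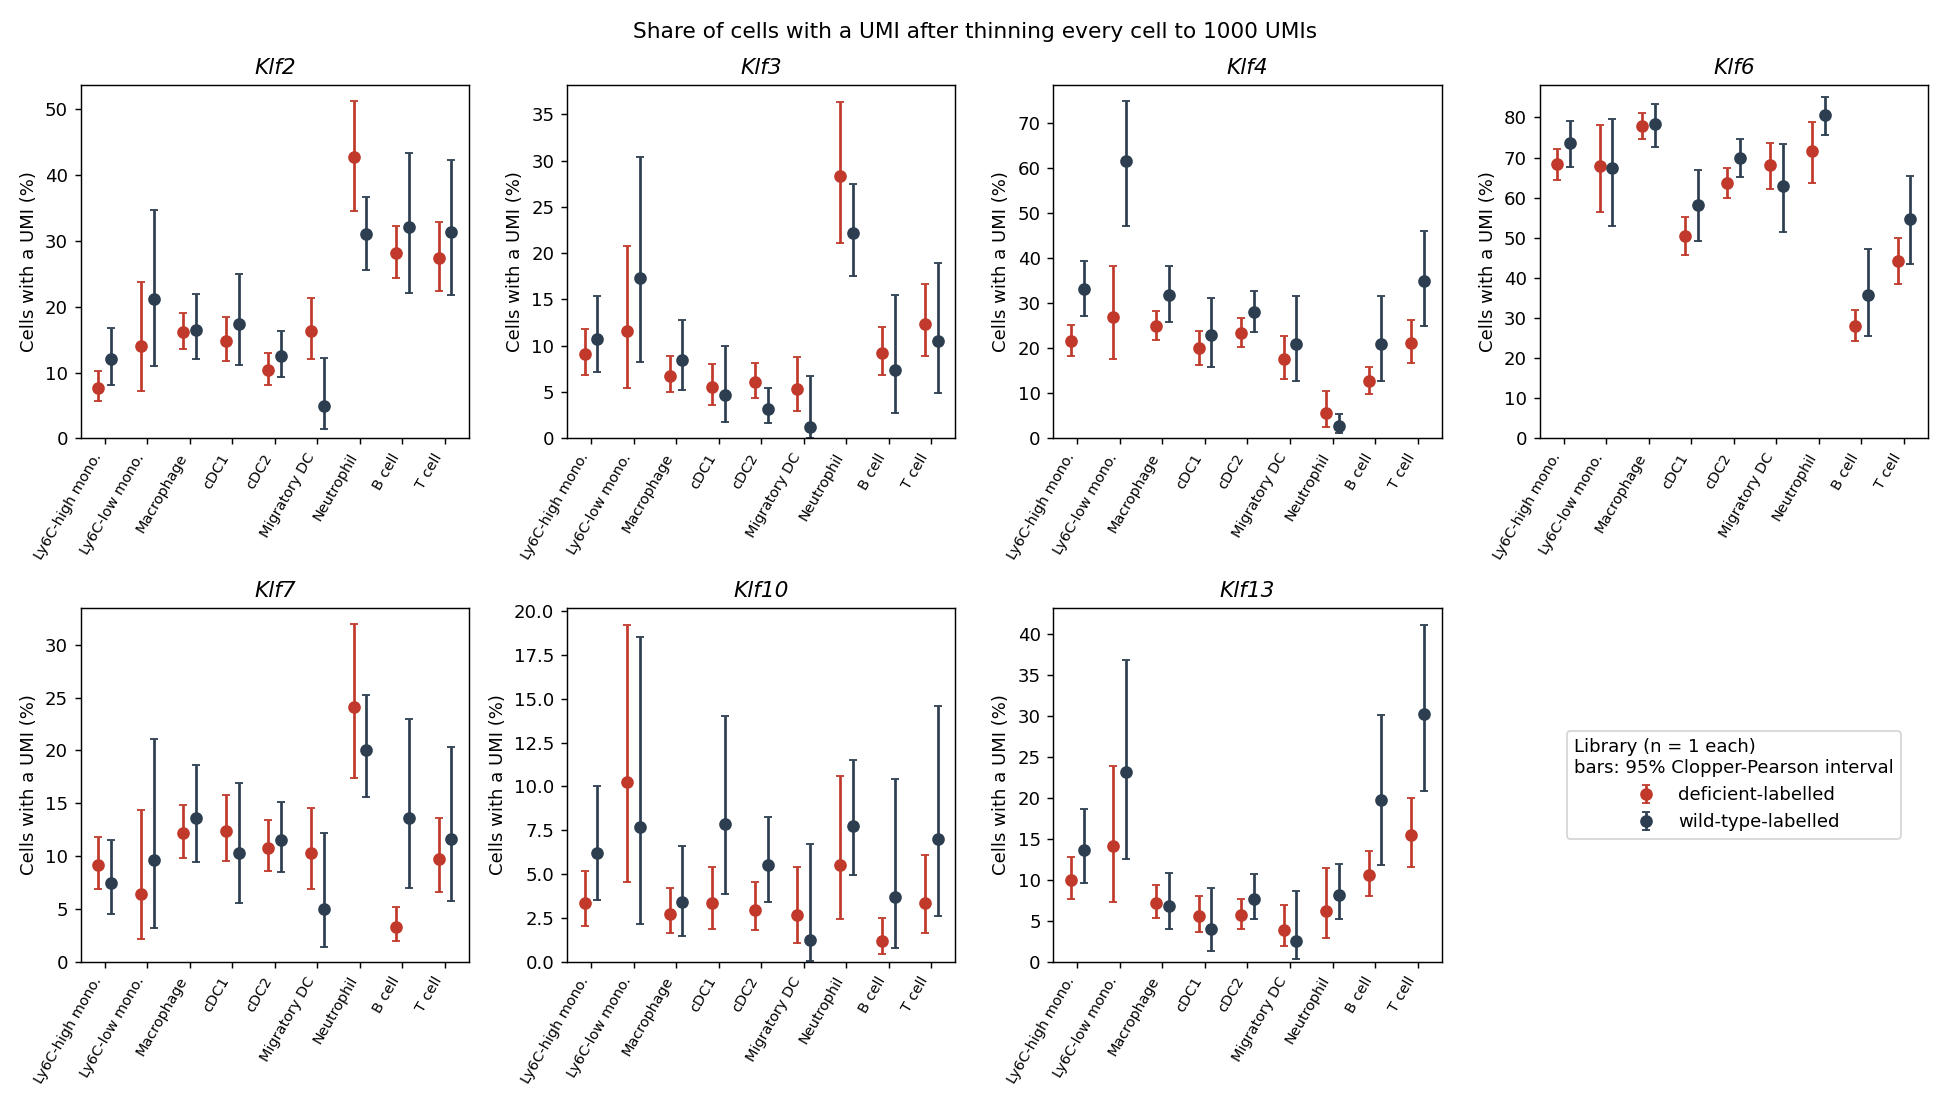
Share of cells (percent) with at least 1 UMI of each member by class, after thinning each cell to 1000 UMIs, with exact binomial 95% intervals, deficient-labelled in red and wild-type-labelled in dark blue, 1 library each. The intervals of the libraries are apart for Klf4 in both monocyte-like classes, at 21.5% against 33.1% and 26.9% against 61.5%. They are also apart for Klf13 in T cell-like cells (15.4% against 30.2%) and for Klf7 in B cell-like cells (3.26% against 13.6%).

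Free RNA in droplets was gauged with transcripts that mark other classes, which did not all go one way. C1qa was at 75.9 CPM in deficient-labelled and 17.9 CPM in wild-type-labelled B cell-like cells, or 4.09% and 1.06% of its macrophage-like level, and at 48.6 and 1.75 CPM in T cell-like cells. It was thus higher in the deficient-labelled library in both of these lymphocyte-like classes. Summed over the 6 macrophage markers, T cell-like cells held 182 CPM in the deficient-labelled and 12.2 CPM in the wild-type-labelled library, and over the 6 cDC2 markers 532 and 124 CPM. The monocyte transcript Ly6c2 was at 80.6 CPM in deficient-labelled and 94.4 CPM in wild-type-labelled T cell-like cells, and the neutrophil transcript Retnlg at 1.98 and 12.2 CPM, on 5 and 7 UMIs. In B cell-like cells Ly6c2 was at 12.9 and 7.69 CPM, on 31 and 3 UMIs. The part of free RNA or of doublets in the Klf4 level of lymphocyte-like cells was not tested.

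The Ly6C-high monocyte-like, macrophage-like and T cell-like classes were also split by a further transcript, in splits chosen after the values were seen. Among Ly6C-high monocyte-like cells, 96.3% of deficient-labelled and 64.0% of wild-type-labelled cells had a UMI of H2-Ab1, an MHC class II gene that monocytes gain as they mature in the gut. In the cells with an H2-Ab1 UMI, Klf4 was at 278 CPM in the deficient-labelled and 550 CPM in the wild-type-labelled library (log2 ratio -0.99, -1.11 to -0.86). In the 21 deficient-labelled and 87 wild-type-labelled cells without one it was at 515 and 504 CPM (0.03, -0.35 to 0.39). Klf13, in contrast, was lower on both sides of the split, at -0.57 (-0.80 to -0.34) with and -1.37 (-2.31 to -0.56) without an H2-Ab1 UMI, and so was Klf2, at -0.63 and -1.05. The 2 sides of the split differ in size between the libraries, and the part of free H2-Ab1 RNA in it was not tested.

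Macrophage-like cells without a UMI of Ly6c2 or Ccr2, which mark recent monocyte origin, held Klf2 at 257 CPM in 290 deficient-labelled and 182 CPM in 103 wild-type-labelled cells (0.50, 0.23 to 0.79). Those with such a UMI held 135 and 132 CPM (0.04, -0.19 to 0.26). Klf7 followed the same split, at 0.52 (0.18 to 0.88) without and 0.06 (-0.17 to 0.29) with a UMI of these genes. In T cell-like cells without an H2-Ab1 UMI, 35 deficient-labelled and 43 wild-type-labelled cells, Klf4 was at 358 and 502 CPM (-0.49, -0.99 to -0.00). In those with one it was at 266 and 688 CPM (-1.37, -1.59 to -1.15). Without one, Klf4, Klf10 (-0.02, -1.38 to 1.24) and Klf13 (-0.39, -0.98 to 0.18) lay within 1.5-fold. Klf6 (-0.93, -1.36 to -0.51) and Klf7 (-0.61, -1.70 to 0.39) were there past 1.5-fold lower. With one, Klf10 had -1.03, Klf13 -0.51, Klf6 -0.09 and Klf7 1.31. T cell-like cells with an H2-Ab1 UMI made up 88.3% of the deficient-labelled and 50% of the wild-type-labelled class.

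The step between Ly6C-high monocyte-like and macrophage-like cells was also read within each library. Past 1.5-fold in the same direction in both libraries were 0 of 7 members, beside 12.2% of 6544 genes higher and 9.69% lower in macrophage-like cells, or 21.9% together. In the deficient-labelled library alone, 1 member was higher (Klf2), beside 15.9% of genes, and 0 were lower, beside 12.2%. In the wild-type-labelled library alone, 1 was higher (Klf7), beside 19.3%, and 3 were lower (Klf3, Klf10 and Klf13), beside 16.8%. Klf7 came closest on the high side, with log2 ratios of macrophage-like over Ly6C-high monocyte-like cells of 0.53 in the deficient-labelled and 0.81 in the wild-type-labelled library, and Klf6 had 0.40 and 0.38. Klf3 came closest on the low side, with -0.56 and -1.12, and it passed 1.5-fold in both libraries when 4 of 6 markers were required or cells with markers of another class were left out. Klf2 was higher in macrophage-like cells in the deficient-labelled library (0.99, 0.82 to 1.16) and level in the wild-type-labelled one (0.02, -0.20 to 0.24). Klf10 (-0.00 and -0.87), Klf13 (-0.34 and -1.12) and Klf4 (0.25 and -0.39) also had unlike values in the 2 libraries.

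Other class pairs were read in the same way. Ly6C-low over Ly6C-high monocyte-like cells had 1 member past 1.5-fold higher in both libraries, Klf2, at 1.13 and 0.90, beside 5.1% of genes, and 0 lower, beside 6.62%. Neutrophil-like over Ly6C-high monocyte-like cells had 3 members higher in both, beside 12.3% of genes, namely Klf2 (2.40 and 1.43), Klf7 (1.44 and 1.81) and Klf3 (1.29 and 1.01), and 1 lower, Klf4 (-1.51 and -2.13), beside 28.2%. Migratory DC-like over cDC2-like cells had 1 member lower in both, Klf13 (-0.63 and -0.67), beside 9.85%, and 0 higher, beside 5.44%. Between cDC1-like and cDC2-like cells 0 members passed 1.5-fold in both libraries, beside 10.5% of genes higher and 10.3% lower in cDC1-like cells. The first value of each pair is the deficient-labelled library's.

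**Figure D4:**
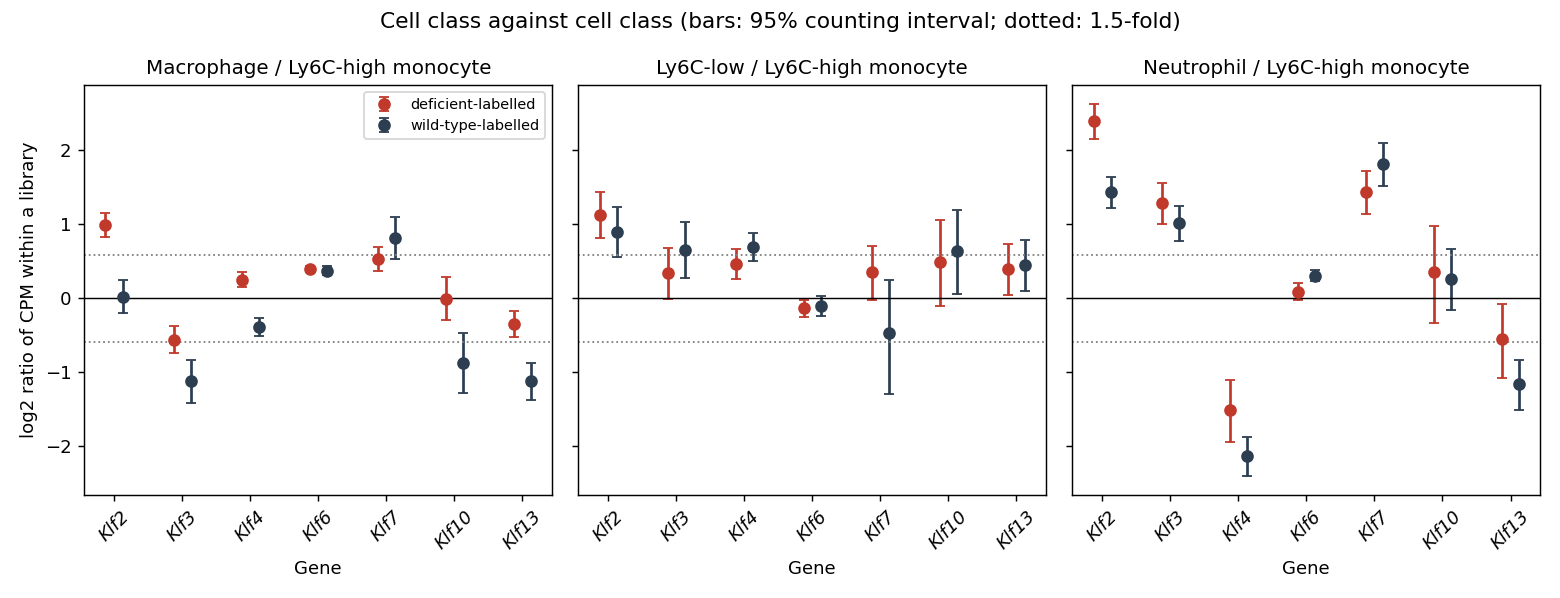
Log2 ratio of CPM between classes within each library, deficient-labelled in red and wild-type-labelled in dark blue, 1 library each, with 95% counting intervals and dotted lines at 1.5-fold, for macrophage-like, Ly6C-low monocyte-like and neutrophil-like cells over Ly6C-high monocyte-like cells. Klf2 of macrophage-like cells is at 0.99 in red and 0.02 in dark blue, while Klf2, Klf3 and Klf7 are above and Klf4 below the lines in both libraries for neutrophil-like cells.

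Immediate-early and dissociation genes, which respond to tissue digestion as Klf2, Klf4, Klf6 and Klf10 can, were read as a list of 15 genes beside the members. In Ly6C-high monocyte-like cells 5 of 15 were past 1.5-fold lower, beside 7.43% of all genes, and 0 higher, beside 8.72%, with a median log2 ratio of -0.50 against 0.02 over all genes, and their summed level was 8346 CPM in the deficient-labelled and 10519 CPM in the wild-type-labelled library. In Ly6C-low monocyte-like cells 10 were lower, beside 11.1%, and 2 higher, beside 12.7%, with a median of -0.83 and sums of 7831 and 13232 CPM. In macrophage-like cells 2 were lower, beside 5.85%, and 0 higher, beside 7.94%, with a median of -0.25 and sums of 10025 and 12071 CPM. Neutrophil-like cells had 7 lower, beside 9.31%, and 2 higher, beside 14%, and T cell-like cells 6 lower, beside 12.5%, and 4 higher, beside 19.6%. More genes were higher than lower in cDC2-like cells, with 3 higher, beside 6.41%, and 1 lower, beside 4.96%, and in B cell-like cells, with 3 higher, beside 16.4%, and 1 lower, beside 9.19%. In cDC1-like cells 3 were lower, beside 7.19%, and in migratory DC-like cells 1 was lower, beside 6.21%, with 0 higher in either, beside 5.56% and 13%. The medians were -0.42 in neutrophil-like cells, -0.07 in B cell-like cells and between -0.21 and -0.19 in T cell-like and all 3 dendritic cell-like classes. In Ly6C-high monocyte-like and macrophage-like cells together, 2 were lower, beside 5.58% of 9335 genes, and 0 higher, beside 7.41%, with a median of -0.26, led by Egr1 (-1.02), Fos (-0.67) and Atf3 (-0.52). By its median the list was thus lower in the deficient-labelled library in all 9 classes. Klf4 and Klf6 were lower in 9 of 9 classes, Klf10 in 7 and Klf2 in 5, while Klf10 was higher in 2 and Klf2 in 4. The part of the list in the members' ratios was not tested.

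**Figure D5:**
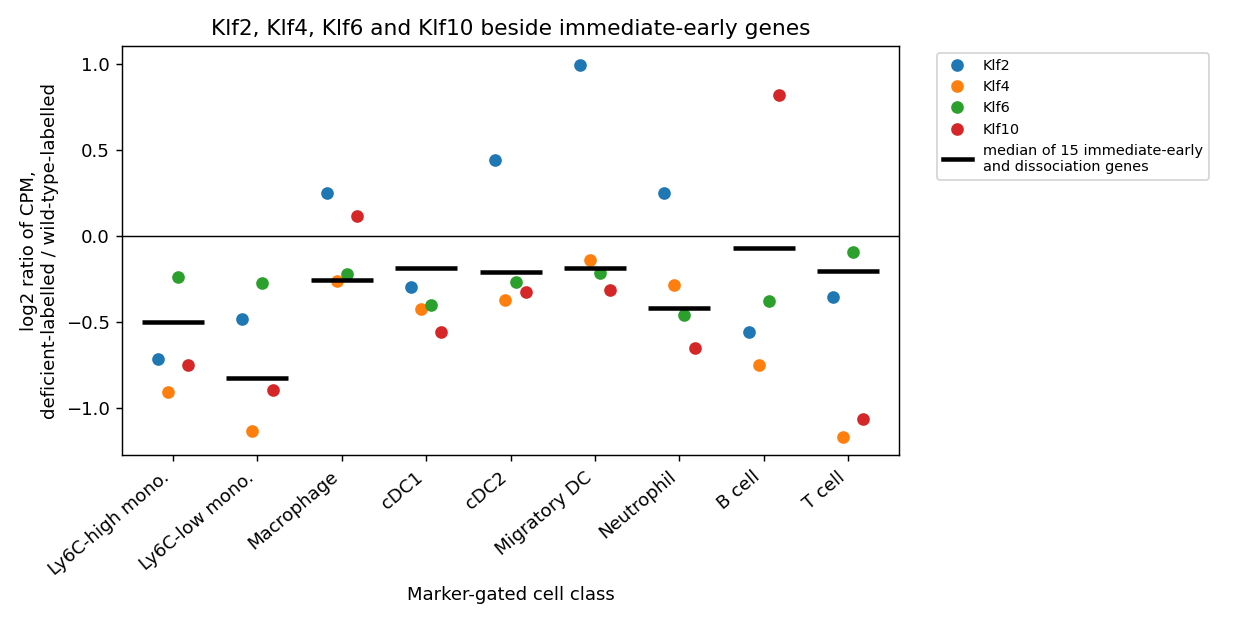
Log2 ratio of the CPM values, deficient-labelled over wild-type-labelled, of Klf2, Klf4, Klf6 and Klf10 (points) and the median of 15 immediate-early and dissociation genes (black bars) by class, 1 library per group. The median is below 0 in all 9 classes and lowest in Ly6C-low monocyte-like cells, at -0.83, where Klf4 is at -1.13.

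The other lists of the pathway were read in Ly6C-high monocyte-like and macrophage-like cells together, where the median of all genes was 0.02 and 5.58% of genes were lower and 7.41% higher. Read in the same way, 0 of the 7 members passed 1.5-fold, with a median of -0.19, Klf4 at -0.56 and Klf2 at -0.05. The list counts are therefore not a contrast with the members' counts by class. The 2 classes held 571 and 710 deficient-labelled against 242 and 246 wild-type-labelled cells, so their mix differed between the libraries. Of 10 other Krüppel-like factor genes 3 were measured and 0 passed 1.5-fold: Klf9 (-0.26), Klf11 (-0.05) and Klf16 (-0.49), with a median of -0.26. By single class, 1 of 3 measured was lower in macrophage-like cells, beside 5.85% of genes, and 1 of 3 in cDC1-like cells, beside 7.19%. In B cell-like cells 1 of 2 was lower, beside 9.19%, and in T cell-like cells 2 of 2, beside 12.5%. None passed 1.5-fold in the other classes, and none was higher in any. Of the 9 genes of the related SP family 4 were measured and 0 passed, with a median of 0.13, led by Sp4 (0.24), Sp2 (0.14) and Sp3 (0.11). Of 6 genes of the ERK5 kinase route and its MEF2 factors, which drive Klf2 and Klf4 in endothelium, 5 were measured, 1 was lower, beside those 5.58% of all genes, and 0 were higher, with a median of -0.40. That gene was Mef2c, a MEF2 factor, at 92.9 CPM in the deficient-labelled and 148 CPM in the wild-type-labelled library (-0.67, -0.81 to -0.53), and Mapk7, which encodes ERK5, had -0.44 and Mef2a -0.40.

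The partner and signal lists held fewer differences. All 6 corepressor genes lay within 1.5-fold, with a median of -0.09, led by Hdac1 (-0.13), Hdac2 (-0.12) and Sin3a (-0.11). All 8 TGF-beta signal genes lay within 1.5-fold, with a median of 0.02, and the receptor genes Tgfbr1 (0.40, 0.24 to 0.56) and Tgfbr2 (-0.37, -0.56 to -0.17) went opposite ways, while Smad3 had 0.32. The list of trafficking genes linked to Klf2 in lymphocytes had 5 of 6 measured, with a median of 0.04. Ccr7 was higher, at 215 CPM in the deficient-labelled and 96.2 CPM in the wild-type-labelled library (1.16, 1.02 to 1.31), and Cd69 had 0.32. Ccr7 is also a marker of migratory DC-like cells, and the part of mixed cells in its level was not tested.

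Among macrophage genes linked to the family, 7 of 8 were measured, 2 were lower, beside 5.58% of all genes, and 1 was higher, beside 7.41%, with a median of -0.23. Il1b, an inflammatory cytokine gene, was at 3382 CPM in the deficient-labelled and 2194 CPM in the wild-type-labelled library (0.62, 0.59 to 0.66), and Tnf was at 475 and 846 CPM (-0.83, -0.89 to -0.77). Arg1, the arginase gene of alternatively activated macrophages, had 0 UMIs in 571 deficient-labelled and 236 UMIs in 242 wild-type-labelled Ly6C-high monocyte-like cells, and 3 and 18 UMIs in macrophage-like cells. Those 236 UMIs came from 16 cells, and 1 of them held 64, so few cells carry the Arg1 difference.

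In the lymphocyte-like classes the trafficking genes were set beside Klf2. S1pr1, the egress receptor and a known Klf2 target in T cells, was at 155 CPM in deficient-labelled and 306 CPM in wild-type-labelled T cell-like cells (-0.98, -1.24 to -0.72), where Klf2 had -0.36. Cd69, which keeps lymphocytes in tissue by removing that receptor from the surface, was also lower there, at 294 and 750 CPM (-1.35, -1.53 to -1.18), and Ccr7 was higher, at 573 and 374 CPM (0.61, 0.41 to 0.83). Ccr7 is also a marker of migratory DC-like cells, which held 2385 and 2108 CPM of it. Of the T cell-like cells, 150 of 300 deficient-labelled and 21 of 86 wild-type-labelled held 2 or more markers of another class. The part of mixed cells in these T cell-like values was not tested. In B cell-like cells, where Klf2 had -0.56, S1pr1 had -0.30 (-0.62 to 0.03), Cd69 -0.37 (-0.56 to -0.19) and Ccr7 -0.32 (-0.48 to -0.16).

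Likeness of pattern was measured as Pearson r of log2(CPM + 10) over the 22 points formed by every class and library with at least 50 cells (12 deficient-labelled and 10 wild-type-labelled), among 7931 genes. The most alike genes were Ncor1 (0.90), Sun2 (0.88) and Mfap1a (0.88) for Klf2, Nedd9 (0.90), Sephs2 (0.89) and Ypel3 (0.89) for Klf3, Insig1 (0.85), Dync1h1 (0.85) and Cd2ap (0.83) for Klf4, and Fem1c (0.90), Slc6a6 (0.90) and Pira2 (0.89) for Klf6. For Klf7 they were Blcap (0.89), Antxr2 (0.87) and Mboat7 (0.86), for Klf10 Tnfrsf1a (0.83), Phyh (0.81) and Myd88 (0.79), and for Klf13 Wipi2 (0.83) and Ankrd11 (0.83). Between members the highest r was 0.63, for Klf3 and Klf13, then 0.61 for Klf6 and Klf7, and the lowest was -0.32, for Klf4 and Klf7. The points share 2 libraries and their depth, so these are descriptions.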

How the data were processed

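Colonic lamina propria cells were profiled in 1 library per group. The authors deposited raw UMI counts, 1 per gene and barcode. The submitters' processing notes name Cell Ranger, STAR 2.5.1b and mm10, and the software version is 3.0.2 per the file headers. Groups follow the titles and genotype labels.

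Barcodes with at least 500 UMIs, 200 genes and at most 20% mitochondrial UMIs were kept. A cell took the class with at least 3 of 6 markers seen and more than any other of 19 classes, and ties were left out (432 deficient-labelled and 127 wild-type-labelled cells). Another 1071 and 463 gated cells had exactly 3 markers, just inside the threshold. Ungated cells numbered 1646 and 815, with medians of 5756.5 and 1697 UMIs. No doublet caller was run, and leaving out cells with 2 or more markers of another class was an alternative. Clusters were not built.

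Class sums of UMIs became CPM values with exact Poisson intervals, ratios with exact conditional binomial intervals and shares with Clopper-Pearson intervals, all at 95% and for counting error only. A gene counted as measured in a class from 50 UMIs, both libraries added, and a count of 0 was set at 3 counts. The ratio, its interval and the 1.5-fold call were tested on simulated counts. The class gate, the Poisson interval and the thinning were checked on small examples, and the other steps were not tested in this way. The tools were matplotlib 3.10.9, pandas 2.3.3, scipy 1.17.1, numpy 2.4.6 and Python 3.11.15.

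The members, the marker classes and the 8 gene lists were chosen with earlier results of these data known. Named genes were all 7 members, up to 3 measured genes of each list with the largest absolute ratio in Ly6C-high monocyte-like and macrophage-like cells together, and the 3 genes with the highest r for each member among genes with at least 500 UMIs. The trafficking genes in T cell-like and B cell-like cells and the splits of classes were chosen after their values were seen. The values of 2 genes that these rules name, and results that need them, are not reported here.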

Additional observations from a re-analysis of the deposited data

Results flagged for a closer look

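Klf2 moved in opposite directions in 2 classes. Its log2 ratio, deficient-labelled over wild-type-labelled, was 0.99 in migratory DC-like cells and -0.71 in Ly6C-high monocyte-like cells, and each class gave 1 value because each group is 1 library. The difference between the classes was not tested.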

How the results depend on the processing

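Of the alternatives, a mitochondrial limit of 10% or none, stricter cell limits, centring on the class median, leaving out shared barcodes and no UMI minimum kept 16 of 16 pairs past 1.5-fold, and gates at 2 or 4 of 6 markers, cells without markers of another class, and the mean over cells kept 15 of 16, 11 of 11, 7 of 8 and 14 of 16 of the pairs they could give. Assigning classes after thinning to 1000 UMIs left 3 classes and 3 of 5 pairs, and reversed the Klf10 ratio of Ly6C-high monocyte-like cells (0.14). It gave 0 of 21 pairs higher, beside 9.84% of all gene and class pairs, and 4 lower, beside 7.31%. The gate at 4 of 6 markers, without the Ly6C-low class, gave 6 of 56 pairs higher, beside 11.1% of all pairs, and 10 lower, beside 7.89%. There 1 member, Klf3, was lower in macrophage-like than in Ly6C-high monocyte-like cells in both libraries. Under the main gate 9.69% of genes were lower and 12.2% higher in that step in both libraries. Leaving out cells with markers of another class gave 1 lower in that step, again Klf3, and 1 higher, Klf7. That setting kept 1353 of 4244 deficient-labelled and 735 of 1795 wild-type-labelled gated cells and gave 5 classes. It could not check the Ly6C-low monocyte-like, cDC1-like, cDC2-like and migratory DC-like classes, and so not the flagged Klf2 ratio of migratory DC-like cells. The cause was not tested beyond the fewer classes and cells. Klf4 stayed past 1.5-fold lower in Ly6C-high monocyte-like cells under all 12 settings, with log2 ratios of -0.99 to -0.61, and in T cell-like cells under all 11 available ones, with -1.23 to -1.01. The H2-Ab1 splits are not among these settings. In cells without an H2-Ab1 UMI, the Klf4 ratio was 0.03 in Ly6C-high monocyte-like and -0.49 in T cell-like cells, both within 1.5-fold. Klf4 of neutrophil-like cells ranged over -1.43 to 0.56. No paired analysis was possible because each group has 1 library. With 1 library per group, no spread between replicates can be given, and ratios of classes with few cells, such as Ly6C-low monocyte-like cells, are the least precise.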

Other observations

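Of the Krüppel-like factors outside the 7, Klf5 and Klf9 had high levels in cells other than leukocytes. Klf5, a factor of proliferating gut epithelium, was at 735 CPM in 25 deficient-labelled and 567 CPM in 18 wild-type-labelled epithelial-like cells, against 12.1 and 12.7 CPM over all kept cells. Klf9 was at 444 CPM in 276 deficient-labelled and 314 CPM in 21 wild-type-labelled fibroblast-like cells, against 44.2 and 34.8 CPM over all kept cells. Klf16, in contrast, was at 20.5 and 36.7 CPM in T cell-like cells, against 14.4 and 9.52 CPM in fibroblast-like cells, the last on 2 UMIs, with the deficient-labelled value first. Klf1, Klf12 and Klf15 were each below 1 CPM over all kept cells of either library, and Klf14 and Klf17 had 0 UMIs in both.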
